A study of Mus musculus with 8 samples.

Results

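The 10 genes described here, called members, cover the entry of pyruvate into mitochondria and the use of ketone bodies: Mpc1, Mpc2, Pdha1, Dlat, Pdk1, Pdk2, Oxct1, Bdh1, Acat1 and Slc16a1. They were chosen by gene symbol, with earlier results of these data known, and all 10 were found among the 32285 genes of the count tables. The nuclei were those of the whole heart, with 1 library for each of 4 WT and 4 Taz-KO males aged 9 weeks. Taz-KO mice lack Tafazzin, the acyltransferase that remodels cardiolipin in the inner mitochondrial membrane, and serve as a model of Barth Syndrome. The allele, the part of the gene that it removes, the strain and littermate status are not given in the sources used here. Values are CPM, the UMIs (counted molecules) of a gene scaled to 1e6 UMIs of non-mitochondrial genes, summed over the nuclei of a cell type in a mouse. A member was called where edgeR's quasi-likelihood test over mice gave a Benjamini-Hochberg adjusted p below 0.05 across all genes tested in that cell type.

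Pyruvate made in the cytosol crosses the inner mitochondrial membrane through a carrier formed by the products of Mpc1 and Mpc2. Pyruvate dehydrogenase then turns it into acetyl-CoA, the complex is switched off when Pdk kinases phosphorylate its E1 alpha subunit, and Pdp phosphatases switch it on again. Ketone bodies, which the heart burns readily, enter cells through monocarboxylate transporters such as the product of Slc16a1, and are oxidized in mitochondria by the enzymes of Bdh1, Oxct1 and Acat1 in that order. Both routes end in acetyl-CoA for the citric acid cycle.

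The libraries held between 20025456 and 348080773 UMIs and between 3492 and 36308 barcodes. Taz-KO replicates 1 and 4 stood apart, with 3492 and 5571 barcodes against 21190 or more in each of the other 6 libraries, and fits of the members without both are given beside the results. Pairs of libraries shared between 2 and 294 cell barcodes, at most 1.04% of the smaller library. Of 151264 nuclei kept, 26427 were cardiomyocytes, 37680 fibroblasts, 22178 endothelial cells, 8764 macrophages, 5313 pericytes and 814 adipocytes, and 45815 stayed unnamed. The study analysed fewer nuclei than were kept here, and it states the approximate number of nuclei used for each library. Most libraries held more barcodes than that number, and the libraries that stood apart held fewer. How many of the kept barcodes were intact nuclei was not tested. None of the members was among the variable genes that defined the clusters (0 of 10). The 7 cardiomyocyte markers, Ryr2 and Ttn among them, were found in the cardiomyocyte sums of every mouse. They summed to between 47212 and 63222 CPM in WT and between 34730 and 54452 CPM in Taz-KO. Outside cardiomyocytes the same markers reached 5.79% to 27.1% of that level in fibroblasts and 8.99% to 34.8% in endothelial cells, with the lowest value of both cell types in Taz-KO replicate 4. Fibroblast markers in cardiomyocytes were at 5.61% to 22.6% of their fibroblast level in WT and 2.55% to 26.2% in Taz-KO. Taz itself stood at 53.5, 49.5, 54.3 and 48.9 CPM in the cardiomyocytes of WT replicates 1 to 4 and at 38.0, 38.2, 28.5 and 31.4 CPM in those of Taz-KO replicates 1 to 4. The genotypes did not overlap (log2 fold change -0.73 ± 0.17 SE, edgeR adjusted p = 0.0153; -0.81 and 0.0491 without Taz-KO replicates 1 and 4), and the count does not show whether these molecules come from outside the deleted part of the gene.

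In cardiomyocytes, Bdh1 rose and Acat1 fell in Taz-KO mice, while Oxct1, whose enzyme acts between theirs, and the 7 members of the pyruvate and transport steps were not called. Thus 2 of the 10 members passed the test, 1 in each direction, where 13.8% of all 18200 genes tested in cardiomyocytes did. DESeq2 called the same 2 members, where it called 15.5% of all genes. The median log2 fold change was -0.08 over the members and 0.0077 over all genes.

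Bdh1 encodes the mitochondrial D-beta-hydroxybutyrate dehydrogenase, the first enzyme of ketone oxidation, and lies on chromosome 16 (chr16:31422280-31458901, plus strand, GRCm38). It was counted at 15.1, 18.7, 12.9 and 6.80 CPM in cardiomyocytes of WT replicates 1 to 4, and at 48.9, 38.7, 40.6 and 64.8 CPM in those of Taz-KO replicates 1 to 4. The lowest Taz-KO mouse was above the highest WT mouse, and the values rest on 224 to 3217 UMIs per mouse. The means were 13.4 ± 4.98 CPM in WT and 48.3 ± 11.9 CPM in Taz-KO (SD, n = 4 each). Expression was 3.42-fold higher in Taz-KO in the fit, with a log2 fold change of 1.77 ± 0.30 (SE) and an edgeR adjusted p of 0.0034. Without Taz-KO replicates 1 and 4 the log2 fold change was 1.39, with an edgeR adjusted p of 0.0135.

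Oxct1 (chr15:4026383-4155344, plus strand) encodes succinyl-CoA:3-ketoacid CoA transferase, the step that commits acetoacetate to oxidation and that the liver lacks. Its level was 945, 712, 691 and 548 CPM in WT and 863, 768, 614 and 878 CPM in Taz-KO cardiomyocytes. The 4 Taz-KO mice lay inside the WT range. The log2 fold change was 0.0042 ± 0.24 (SE; edgeR adjusted p = 0.995).

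Acat1 (chr9:53580522-53610382, minus strand) encodes the mitochondrial acetoacetyl-CoA thiolase, which splits acetoacetyl-CoA into acetyl-CoA. Its level was 198, 233, 265 and 215 CPM in WT and 163, 166, 157 and 155 CPM in Taz-KO cardiomyocytes. Each Taz-KO mouse was below each WT mouse, and the Taz-KO mice were close together (160 ± 5.12 CPM against 228 ± 28.3 CPM in WT, SD, n = 4 each). The log2 fold change was -0.63 ± 0.17 (SE; edgeR adjusted p = 0.0296). This call depended on the mice used, since the adjusted p was 0.0590 to 0.0718 without Taz-KO replicate 1 or 3 or without WT replicate 2 or 3, and 0.0884 without Taz-KO replicates 1 and 4 together.

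**Figure D1:**
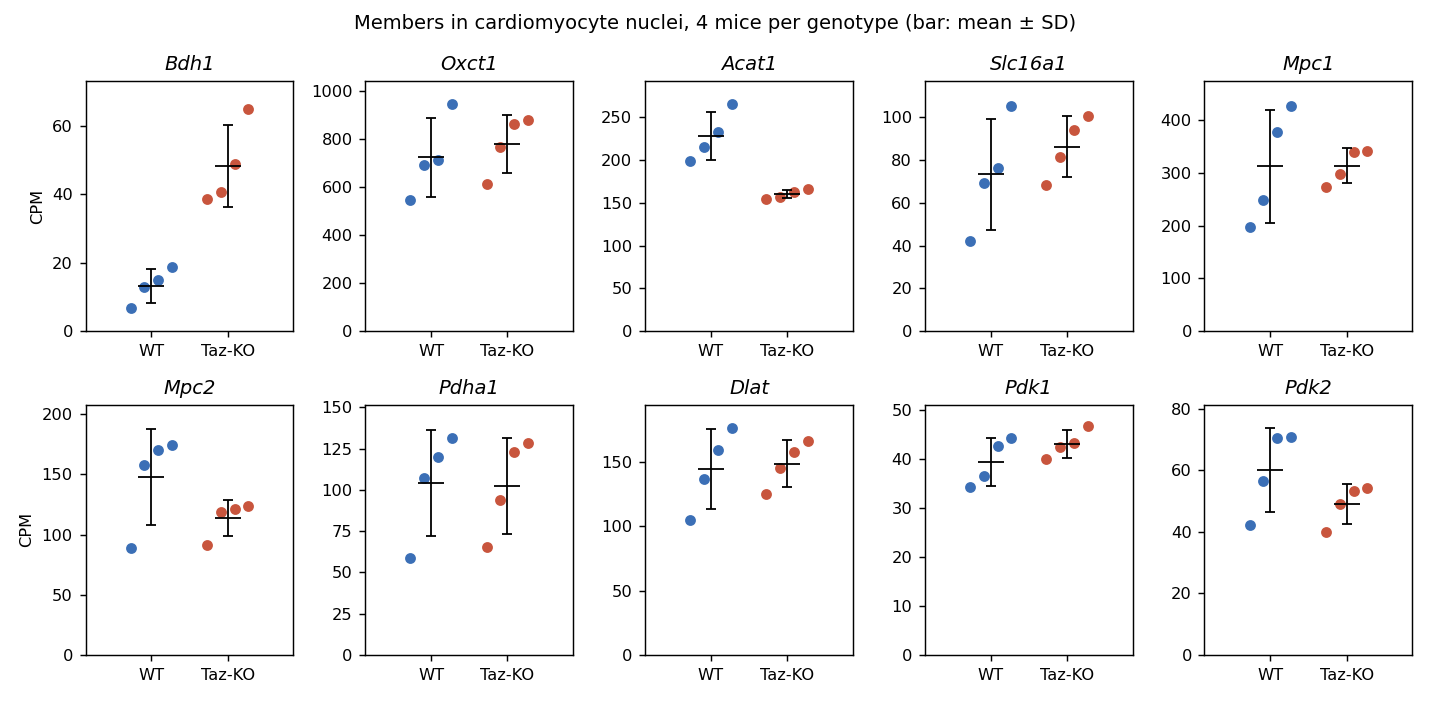
CPM of each member in cardiomyocytes, with 1 point per mouse for 4 WT mice in blue and 4 Taz-KO mice in red and black bars for the mean ± SD. Bdh1 is higher in each Taz-KO mouse (38.7 to 64.8 CPM) than in each WT mouse (6.80 to 18.7 CPM), Acat1 is lower (155 to 166 against 198 to 265 CPM), and the mice of both genotypes overlap for the other 8 members.

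The number of nuclei in which a member was found was compared as well, as a share. With every cardiomyocyte nucleus thinned to 1000 UMIs, Bdh1 was found in 1.31% ± 0.495 of WT and 4.11% ± 1.15 of Taz-KO cardiomyocyte nuclei (SD, n = 4 mice each). Its range was 0.663% to 1.87% in WT and 3.04% to 5.74% in Taz-KO, so the genotypes did not overlap (exact two-sided permutation test, p = 0.0286, the smallest that 4 against 4 mice can give). Without thinning the shares were 12.1% and 26.7%. In fibroblast nuclei thinned to the same 1000 UMIs, Bdh1 was found in 0.867% of WT and 1.80% of Taz-KO nuclei. Ttn, a sarcomere gene that fibroblasts should lack, was found in 95.3% and 84.9% of them. The source of these Ttn UMIs in fibroblast nuclei was not tested. The Bdh1 share in cardiomyocytes was above that in fibroblasts of the same mouse in all 8 mice, though in WT replicate 3 only at 1.32% against 1.22%. The median depth was 2965 to 12236 UMIs per cardiomyocyte nucleus and 2854 to 7919.5 per fibroblast nucleus over the 8 mice. Acat1 was found in 20.5% ± 2.3 of WT and 14.8% ± 1.27 of Taz-KO cardiomyocyte nuclei, again without overlap (exact two-sided permutation test, p = 0.0286). Without thinning the Acat1 shares were 85.4% and 60.6%, and the genotypes overlapped (exact p = 0.0571). The other 8 members overlapped between genotypes, with exact p from 0.20 to 1.0. None of these exact p-values was adjusted for the 10 members tested. How many of all genes do not overlap between genotypes was not determined, for these shares or for CPM. Taz-KO replicates 2 and 3 alone had Bdh1 shares of 3.81% and 3.87% and Acat1 shares of 15.5% and 14.6%, outside the WT range for both genes. Thinning left out 244 Taz-KO nuclei and 0 WT nuclei that held fewer than 1000 UMIs.

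Cardiomyocytes fell into 5 clusters, and clusters 3 and 5 held most of them. In each of the 4 WT mice cluster 3 held 58.0% to 65.1% of cardiomyocyte nuclei, but it held 2.01% in Taz-KO replicate 1 and 13% in Taz-KO replicate 4, where a further cluster (31) held 29.3% and 36.3%. Nuclei of cluster 31 held a median of 6.80 times the median UMIs of their library, against 2.73 and 1.38 times in clusters 3 and 5. Mitochondrial UMIs were 0.79% of the total in cluster 31, against 8.57% and 15.5% in clusters 3 and 5. Cluster 31 held 1 WT nucleus and cannot be compared between genotypes. It gave 194 of the 224 Bdh1 UMIs in cardiomyocytes of Taz-KO replicate 1 and 428 of the 552 in replicate 4, at 55.1 and 66.1 CPM. Within clusters 3, 5 and 28 the genotypes did not overlap for Bdh1. In cluster 3, Bdh1 ranged from 7.17 to 19.5 CPM in 4 WT mice and from 40.7 to 70.3 CPM in the 3 Taz-KO mice with at least 50 nuclei. In cluster 5 it ranged from 5.09 to 16.8 CPM in 4 WT mice and from 24.4 to 52.7 CPM in 4 Taz-KO mice. In the cluster led by atrial markers (28) it ranged from 3.75 to 12.2 CPM in 3 WT mice and from 23.4 to 33.6 CPM in 2 Taz-KO mice. Acat1 was lower in Taz-KO in the same 3 clusters, at 144 to 165 against 193 to 261 CPM in cluster 3, 107 to 192 against 200.1 to 280.01 CPM in cluster 5, and 120.2 to 150.3 against 186 to 209 CPM in the atrial cluster. Oxct1 overlapped in these 3 clusters, with 563 to 962 CPM in WT and 638 to 834 CPM in Taz-KO in cluster 3, 492 to 909 and 489.0 to 736 CPM in cluster 5, and 327 to 469 and 368 to 589 CPM in the atrial cluster. The Oxct1 level of Taz-KO replicates 1 and 4 was 957 and 913 CPM in cluster 31, against 489.0 and 678 CPM in cluster 5. Bdh1 of Taz-KO replicate 1 was 24.4 CPM in cluster 5, on 20 UMIs, against 48.9 CPM over all its cardiomyocytes. These within-cluster values were not tested.

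Of the transport and pyruvate members, none was called in cardiomyocytes. Slc16a1 (chr3:104638668-104658462, plus strand), the gene of the monocarboxylate transporter MCT1 that carries lactate, pyruvate and ketone bodies, stood at 105, 76.5, 69.3 and 42.2 CPM in WT and 101, 68.5, 93.9 and 81.3 CPM in Taz-KO. Its groups overlapped (log2 fold change 0.11 ± 0.23 SE, edgeR adjusted p = 0.832), and it is the only member with other counted genes, Gm43581 and Gm43585, on the same strand of its locus, so its reads may be split among them.

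Mpc1 (chr17:8282904-8297661, plus strand) and Mpc2 (chr1:165460637-165481214, plus strand) form the pyruvate carrier, and both proteins are needed for it to work. Mpc1 stood at 427, 377, 248 and 198 CPM in WT and 273, 340, 299 and 341 CPM in Taz-KO, with all Taz-KO mice inside the WT range. Mpc2 stood at 174, 170, 158 and 88.7 CPM in WT and 124, 121, 119 and 91.1 CPM in Taz-KO. For Mpc2, 3 WT mice were above every Taz-KO mouse and WT replicate 4 was below every one of them. The log2 fold changes were -0.09 ± 0.25 for Mpc1 (SE; edgeR adjusted p = 0.874) and -0.50 ± 0.19 for Mpc2 (SE; adjusted p = 0.114). Mpc2 was called as lower without WT replicate 4 (log2 fold change -0.67, edgeR adjusted p = 0.0230). It was also called after subtraction of the profile of the barcodes with the fewest UMIs at a share of 0.2 (-0.62, edgeR adjusted p = 0.0463).

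Pdha1 (chrX:160122209-160138413, minus strand) encodes the E1 alpha subunit of pyruvate dehydrogenase, which the kinases phosphorylate, and Dlat (chr9:50634633-50659780, minus strand) encodes its E2 core. Pdha1 stood at 107, 132, 120 and 58.6 CPM in WT and 123, 93.8, 128 and 65.2 CPM in Taz-KO. Dlat stood at 176, 137, 159 and 105 CPM in WT and 125, 145, 158 and 166 CPM in Taz-KO. Their ranges overlapped, with log2 fold changes of -0.17 ± 0.22 for Pdha1 (SE; edgeR adjusted p = 0.70) and -0.06 ± 0.20 for Dlat (SE; adjusted p = 0.897).

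Pdk1 (chr2:71873224-71903858, plus strand) and Pdk2 (chr11:95026258-95041354, minus strand) encode kinases that switch the complex off. Pdk1 stood at 36.5, 44.4, 42.7 and 34.3 CPM in WT and 46.7, 42.4, 43.4 and 39.9 CPM in Taz-KO, and Pdk2 at 56.4, 70.6, 70.7 and 42.2 CPM in WT and 54.1, 53.2, 49.0 and 40.0 CPM in Taz-KO. The groups overlapped for both kinases. The log2 fold change was -0.00038 ± 0.13 for Pdk1 (SE; edgeR adjusted p = 0.999) and -0.41 ± 0.16 for Pdk2 (SE; adjusted p = 0.122). Before adjustment, p was below 0.05 for Mpc2, Pdk2, Bdh1 and Acat1, 4 of 10 members, in edgeR and in DESeq2. In edgeR 27.8% of all genes reached that threshold, and the DESeq2 share is not given here. Without Taz-KO replicates 1 and 4 the log2 fold changes in cardiomyocytes were -0.14 for Mpc1, -0.48 for Mpc2, -0.11 for Pdha1, -0.12 for Dlat, -0.07 for Pdk1 and -0.41 for Pdk2, with none called. In the same fit Oxct1 and Slc16a1 turned to -0.25 and -0.06, also not called.

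Outside cardiomyocytes none of the members was called in fibroblasts, endothelial cells, macrophages or pericytes, where edgeR called 0.35%, 0.478%, 0.0815% and 0.117% of all genes, respectively. DESeq2 also called 0 of 10 members in each of these cell types, where it called 1.66%, 1.65%, 0.422% and 0.251% of all genes. At an unadjusted p below 0.05, edgeR gave Acat1 in fibroblasts, Bdh1 in endothelial cells, Acat1 in macrophages and Bdh1 in pericytes, 1 member each. In edgeR 9.58%, 8.64%, 5.59% and 4.79% of all genes reached that threshold. A count of 1 in 10 is near these shares. DESeq2 gave between 0 and 2 members, and its shares of all genes at that threshold are not given here. Bdh1 had a log2 fold change of 1.1 ± 0.56 in fibroblasts, 1.36 ± 0.51 in endothelial cells, 1.21 ± 0.61 in macrophages and 1.19 ± 0.52 in pericytes (SE; edgeR adjusted p = 0.627, 0.444, 0.980 and 1.00). Acat1 had -0.65 ± 0.23, -0.71 ± 0.32, -0.76 ± 0.26 and -0.36 ± 0.25 in the same order (SE; adjusted p = 0.354, 0.584, 0.615 and 1.00). Without Taz-KO replicates 1 and 4 the log2 fold changes in that order were 1.60, 1.67, 1.68 and 1.49 for Bdh1 and -0.42, -0.52, -0.48 and -0.38 for Acat1, with none called.

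**Figure D2:**
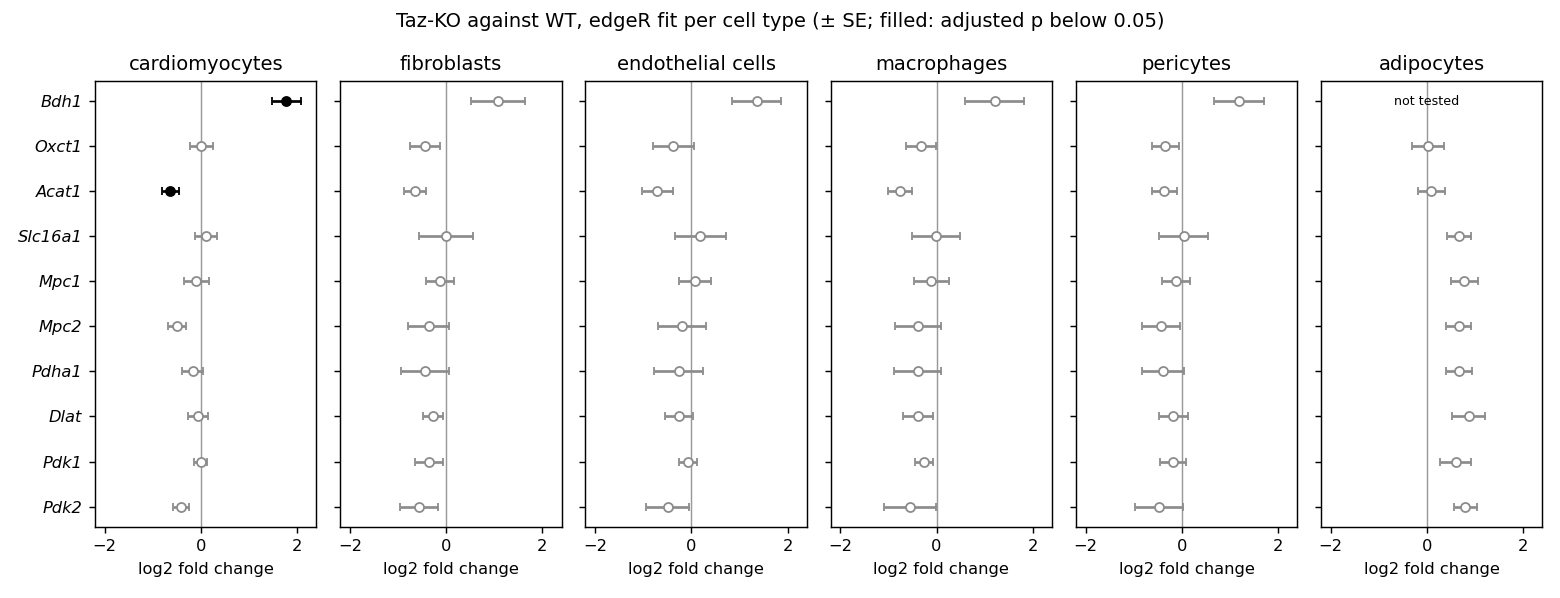
Log2 fold change of each member, Taz-KO against WT, in the edgeR fits of 6 cell types with 4 mice per genotype; bars are ± SE and filled points have an adjusted p below 0.05. The only filled points are Bdh1 (1.77) and Acat1 (-0.63) in cardiomyocytes, and in adipocytes the 9 members tested all lie above 0.

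Whether the genotype effect differed between cardiomyocytes and another cell type was tested by an interaction with the mouse as a block. No member was called against fibroblasts, endothelial cells or macrophages, 0 of 10 each by edgeR and by DESeq2. At an unadjusted p below 0.05 the count was also 0 of 10 by either. Of all genes, edgeR called 3.72%, 2.37% and 1.26%, and it gave 15.8%, 13.7% and 12.4% an unadjusted p below 0.05. The shares of DESeq2 for these interactions are not given here. For Bdh1 the log2 fold change in cardiomyocytes exceeded that in fibroblasts by 0.43 ± 0.57, that in endothelial cells by 0.18 ± 0.49 and that in macrophages by 0.20 ± 0.61 (SE; edgeR adjusted p = 0.820, 0.956 and 0.950). The direction turned without Taz-KO replicates 1 and 4, to -0.26, -0.30 and -0.31 in the same order. The Bdh1 difference is therefore not shown to be particular to cardiomyocytes, nor are the errors small enough to show equal effects.

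In fibroblasts and macrophages, the Bdh1 level of each genotype was in the same order over mice as the level of cardiomyocyte markers found there, apart from Taz-KO replicates 2 and 3 in fibroblasts. In fibroblasts, Bdh1 stood at 5.00, 13.6, 11.7 and 2.98 CPM in WT replicates 1 to 4, in which the 7 cardiomyocyte markers were at 19.8%, 27.1%, 26.6% and 10.2% of their cardiomyocyte level. In Taz-KO replicates 1 to 4 it stood at 10.3, 25.5, 28.4 and 6.02 CPM, with the markers at 15.9%, 25.9%, 24.7% and 5.79%. Within each genotype the mice with the least cardiomyocyte marker RNA in fibroblasts were also those with the least Bdh1. The order was not kept everywhere. In pericytes, Taz-KO replicate 1 had markers at 21.6% and Bdh1 at 0 CPM where replicate 4 had 6.59% and 3.003 CPM, and in endothelial cells Taz-KO replicate 1 had the most marker RNA (33.0%) but less Bdh1 (29.5 CPM) than replicate 3 (29.7% and 36.3 CPM). In Taz-KO replicate 4, which had the highest Bdh1 in cardiomyocytes (64.8 CPM), fibroblasts had 9.28%, endothelial cells 7.82% and macrophages 3.85% of that level. The other mice had larger shares. In Taz-KO replicates 1 to 3 the shares were 21.0%, 65.8% and 69.9% in fibroblasts and 60.4%, 82.0% and 89.4% in endothelial cells. In macrophages they were 11.9%, 76.1% and 89.1%. The WT mice had 33.1% to 90.7% in fibroblasts, 43.3% to 92.7% in endothelial cells and 42.1% to 101% in macrophages. The part of cardiomyocyte RNA in these levels was not tested. In each library, the 10% of barcodes lowest in UMIs held Bdh1 at 16.0 ± 7.82 CPM in WT and 34.9 ± 11.2 CPM in Taz-KO (SD, n = 4 each). Relative to the cardiomyocytes of the same mouse, this was 71.7%, 129%, 165% and 117% in WT replicates 1 to 4. In Taz-KO replicates 1 to 4 it was 66.1%, 117%, 104% and 31.2%. In cardiomyocytes, subtraction of the profile of these barcodes at an ambient share of 0.2 left the Bdh1 difference at a log2 fold change of 1.90 (edgeR adjusted p = 0.0121) and that of Acat1 at -0.66 (adjusted p = 0.0267). The fewest UMIs of any deposited barcode, mitochondrial ones included, were 3979, 6522, 3487 and 2165 in WT replicates 1 to 4. In Taz-KO replicates 1 to 4 they were 500, 3952, 2482 and 500, so the lowest barcodes were of unlike depth between libraries. The profile came from the lowest of the deposited barcodes, and no set of empty droplets was used. It held cardiomyocyte markers at 30.9% to 50.2% of the cardiomyocyte level in WT and 36.0% to 49.3% in Taz-KO. The subtraction therefore cannot show how these differences stand without ambient RNA.

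**Figure D3:**
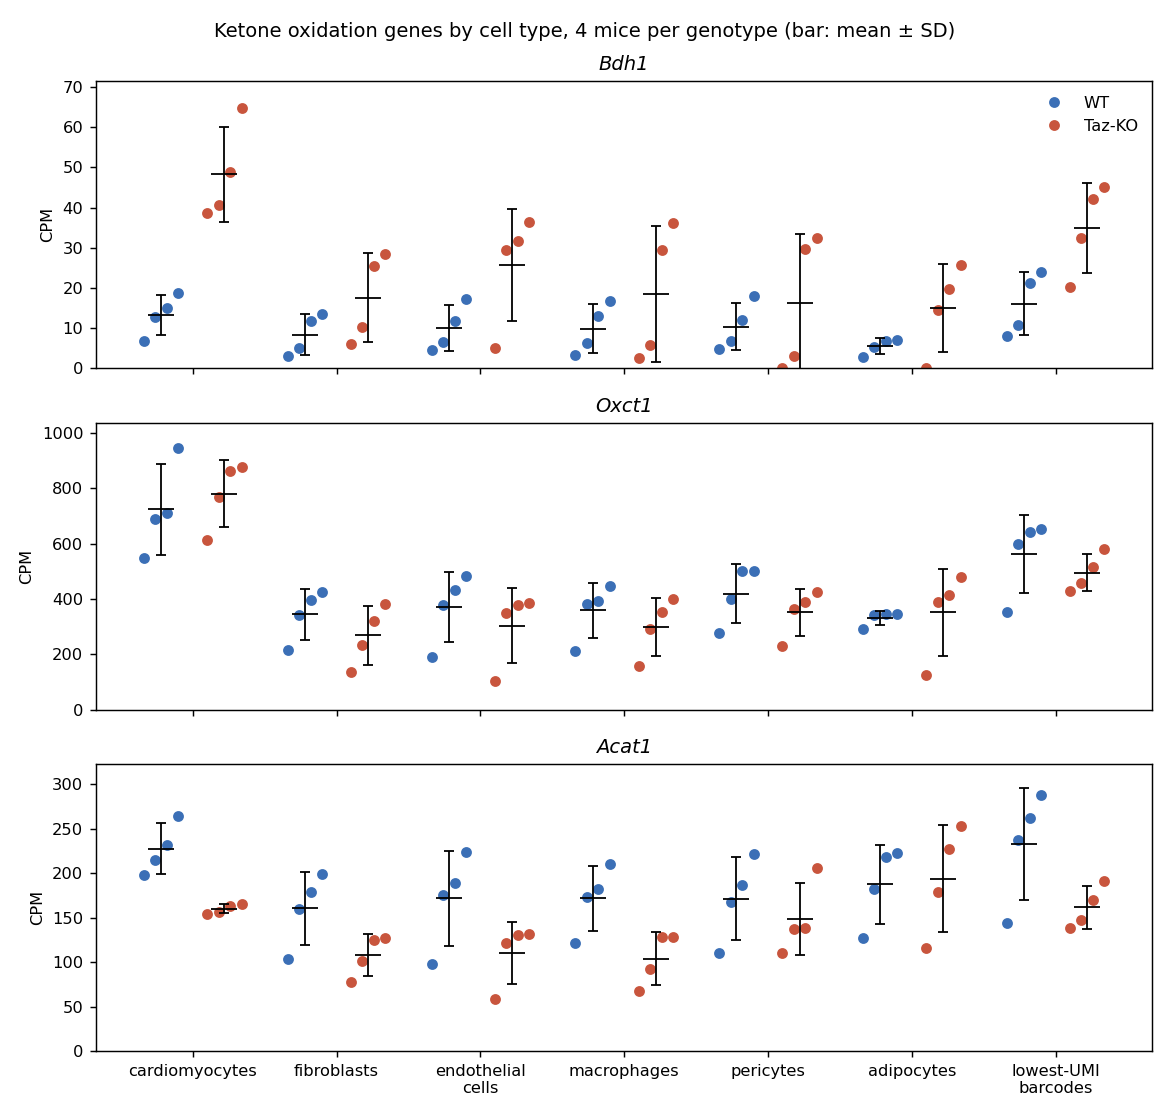
CPM of Bdh1, Oxct1 and Acat1 in 6 cell types and in the barcodes with the fewest UMIs, with 1 point per mouse (4 WT in blue, 4 Taz-KO in red) and black bars for the mean ± SD, cut at 0. Outside cardiomyocytes the 4 Taz-KO mice of Bdh1 are widely spread, from 6.02 to 28.4 CPM in fibroblasts, and overlap the WT mice.

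Among the 8 named cell types, the mean of WT mice was highest in cardiomyocytes for 7 of the 10 members: Bdh1, Oxct1, Acat1, Mpc1, Mpc2, Pdk1 and Pdk2. Only for Oxct1 did the next cell type lie below cardiomyocytes by more than both SDs. For Mpc2 the means were 148 ± 39.9 CPM in cardiomyocytes and 146 ± 63.5 CPM in pericytes. Oxct1 was clearest, with 724 ± 164 CPM in cardiomyocytes, then 419 ± 106 in pericytes and 371 ± 127 in endothelial cells, and 324 ± 75.0 in mesothelial cells at the low end (SD, n = 4 WT mice). Neighbours in that order below cardiomyocytes did not differ beyond their spread. Mpc1 had another order below cardiomyocytes, with 313 ± 107 CPM in cardiomyocytes, 237 ± 34.2 in adipocytes, 153 ± 46.7 in pericytes and 130 ± 37.4 in mesothelial cells. In the barcodes with the fewest UMIs, the WT mean was above that of cardiomyocytes for Bdh1, Acat1, Mpc2, Pdk2, Pdha1 and Slc16a1 (93.7 against 73.3 CPM) and equal to it for Pdk1 (39.4 against 39.5 CPM), so for these members the cardiomyocyte level of WT mice does not stand above that of such barcodes. No barcode of a WT library held fewer than 2165 UMIs, mitochondrial ones included. For Bdh1 the order in WT was cardiomyocytes, pericytes (10.4 ± 5.85), endothelial cells (10.0 ± 5.75) and macrophages (9.86 ± 6.14). Those 3 means lay within the spread between mice of each other and of cardiomyocytes, whereas adipocytes, the lowest at 5.47 ± 2.02, lay below cardiomyocytes by more than either SD. Pdk1 ranged from 25.8 ± 5.23 CPM in fibroblasts to 39.5 ± 4.86 in cardiomyocytes, and the WT mice of these 2 cell types did not overlap (21.7 to 33.3 against 34.3 to 44.4 CPM).

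The other 3 members departed from that order in WT mice. Slc16a1 was highest in mesothelial cells, the lining of the heart surface, at 136 ± 29.1 CPM against 73.3 ± 25.9 CPM in cardiomyocytes. Pdha1 was at 104 ± 32.1 CPM in cardiomyocytes and at 170 ± 72.2 CPM in endothelial cells, and stood at 256 ± 85.9 CPM in the barcodes with the fewest UMIs, above each named cell type. Dlat was at 152 ± 16.3 CPM in adipocytes and 144 ± 31 CPM in cardiomyocytes, a difference within the spread between mice. Cell types were defined from the same nuclei, so these orders are a description and were not tested.

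In adipocytes the pyruvate members had positive log2 fold changes in Taz-KO that did not pass the test. None was called among the 9 members that could be tested there, where 2.11% of all genes were called, but all 9 had a log2 fold change above 0, with a median of 0.66 against -0.03 over all genes. At an unadjusted p below 0.05, edgeR gave 6 of 9 (Mpc1, Mpc2, Pdha1, Dlat, Pdk2 and Slc16a1), against 19.3% of all genes. DESeq2 gave 7 of 10, and its share of all genes at that threshold is not given here. Of these, Mpc1 passed adjustment (log2 fold change 0.83, DESeq2 adjusted p = 0.0385), as did 2.82% of all genes. The median of all genes was 0.19 in that fit. Adipocytes were few, with 43 to 131 nuclei in WT mice, 307 and 149 in Taz-KO replicates 2 and 3, and 13 and 21 in Taz-KO replicates 1 and 4.

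Mpc1 in adipocytes stood at 277, 228, 195 and 248 CPM in WT and 291, 449, 473 and 427 CPM in Taz-KO, without overlap (log2 fold change 0.78 ± 0.27 SE, edgeR adjusted p = 0.139). Pdk2 stood at 42.2, 54.3, 47.2 and 28.3 CPM in WT and 58.2, 80.0, 88.2 and 68.9 CPM in Taz-KO, also without overlap (0.80 ± 0.24, adjusted p = 0.0896), on only 4 UMIs in Taz-KO replicate 1. Dlat stood at 170, 148, 158 and 131 CPM in WT and 102, 233, 403 and 345 CPM in Taz-KO, where Taz-KO replicate 1 was the lowest mouse of all 8 (0.86 ± 0.34, adjusted p = 0.178). Mpc2 (0.66 ± 0.26), Pdha1 (0.67 ± 0.28) and Slc16a1 (0.66 ± 0.25) had log2 fold changes of a like size with overlapping mice (SE; edgeR adjusted p = 0.181, 0.210 and 0.163). Oxct1 and Acat1 had log2 fold changes of 0.015 ± 0.33 and 0.09 ± 0.28 (SE; adjusted p = 0.993 and 0.917).

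Leaving out Taz-KO replicates 1 and 4, which hold 13 and 21 adipocytes, gave 6 called members in adipocytes (Mpc1, Mpc2, Pdha1, Dlat, Pdk2 and Bdh1), where 9.57% of all genes were called. Leaving out Taz-KO replicate 1 alone gave 4, where 4.63% of all genes were called. Cardiomyocyte markers were at 20.01% to 32.9% of their cardiomyocyte level in WT adipocytes and at 39.4%, 29.4%, 28.9% and 2.51% in Taz-KO replicates 1 to 4. Fibroblast markers were at 20.1% to 31.4% of their own level in WT and 9.23% to 58.0% in Taz-KO adipocytes, and endothelial markers at 10.00% to 37.0% and 12.99% to 65.3%. The 6 adipocyte markers summed to 735 to 3325 CPM in WT and 480 to 2386 CPM in Taz-KO adipocytes. The part of these markers' cells in the adipocyte values was not tested. Bdh1 was filtered out of the adipocyte fit, with 2 to 15 UMIs in each WT mouse and 1, 45, 21 and 0 UMIs in Taz-KO replicates 1 to 4.

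The genes around the members were described from 3 lists, also chosen with earlier results of these data known. In cardiomyocytes 4 of 19 genes of the pyruvate list were called, all lower in Taz-KO, against 0 of the 7 genes tested of the ketone list and 1 of 18 of the citric acid cycle list, also lower. The median log2 fold change was -0.26 for the pyruvate list, 0.04 for the ketone list and -0.26 for the citric acid cycle list, against 0.0077 for all genes, of which 13.8% were called. Log2 fold changes were below 0 for 13 of 19 pyruvate genes and for 16 of 18 citric acid cycle genes in cardiomyocytes. In fibroblasts, endothelial cells, macrophages and pericytes the counts of the citric acid cycle list depended on Taz-KO replicates 1 and 4. For the citric acid cycle list, values were below 0 for 18 of 18 genes in fibroblasts (median -0.36) and in macrophages (-0.23), 17 of 18 in endothelial cells (-0.23) and 16 of 18 in pericytes (-0.25), with medians of all genes between -0.0036 and 0.014 and no gene called. Without those libraries the counts were 7, 5, 7 and 7 of 18 in the same order, with medians of 0.019, 0.12, 0.014 and 0.026. For the pyruvate list, 16, 16, 13 and 12 of 19 genes were below 0 in fibroblasts, endothelial cells, macrophages and pericytes. The medians were -0.36, -0.20, -0.20 and -0.23 in that order. Without those libraries the counts were 12, 13, 12 and 10 of 19, with medians of -0.096, -0.10, -0.057 and -0.0070. In cardiomyocytes the medians without them were -0.25 for the pyruvate list, -0.12 for the ketone list and -0.21 for the citric acid cycle list. In the same order, 13 of 19, 4 of 7 and 17 of 18 genes were below 0. Taz-KO replicate 4 also had the least cardiomyocyte marker RNA in fibroblasts (5.79%), whose part was not tested. In adipocytes the pyruvate and citric acid cycle lists had 12 of 16 and 16 of 18 genes above 0, with medians of 0.27 and 0.45 and no gene called. Without Taz-KO replicates 1 and 4, 14 of 18 and 18 of 18 were above 0, with medians of 0.41 and 0.62. That fit called Pdhb, Slc16a7 and Me1 of the pyruvate list (2 higher, 1 lower) and Mdh1 of the citric acid cycle list (higher). Slc16a6 of the ketone list was called as lower there, where 9.57% of all genes were called.

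Pdp2, a phosphatase that switches pyruvate dehydrogenase on, fell to a log2 fold change of -1.40 ± 0.20 (SE; edgeR adjusted p = 0.00096). It stood at 8.36, 10.7, 11 and 10.0 CPM in WT and 4.80, 4.14, 5.01 and 2.94 CPM in Taz-KO cardiomyocytes, with no overlap. Pdk4, a kinase that switches the complex off, was not called (-2.11 ± 0.88 SE, edgeR adjusted p = 0.157). Its means were 330 ± 343 CPM in WT and 86.4 ± 43.2 CPM in Taz-KO (SD, n = 4 each), with overlapping mice. Ldhb, the lactate dehydrogenase subunit typical of heart, stood at 290, 397, 351 and 272 CPM in WT and 258, 248, 232 and 157 CPM in Taz-KO (-0.69 ± 0.18, adjusted p = 0.0277). Ldhd, which oxidizes D-lactate, ranged from 8.02 to 11.9 CPM in WT and from 3.64 to 8.83 CPM in Taz-KO (-1.06 ± 0.26, adjusted p = 0.0206), and only Taz-KO replicate 3 reached the WT range. Me3, a mitochondrial malic enzyme that makes pyruvate from malate, stood at 193 to 250 CPM in WT and 90.7 to 145 CPM in Taz-KO (-1.0 ± 0.25, adjusted p = 0.0211).

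Sdhc, a membrane subunit of succinate dehydrogenase, was the called gene of the citric acid cycle list (-0.55 ± 0.16 SE, edgeR adjusted p = 0.0412), at 135 to 182 CPM in WT and 113 to 136 CPM in Taz-KO. Pdp2 was called whichever mouse was left out and without Taz-KO replicates 1 and 4 together, while the adjusted p of Ldhb (0.127), Ldhd (0.0936), Me3 (0.0671) and Sdhc (0.116) was above 0.05 without those 2 libraries. Pcx of the pyruvate list was called as lower in that fit, but not with all mice (-0.80, edgeR adjusted p = 0.0729). Leaving out 1 mouse also raised the adjusted p above 0.05 for Ldhb (WT replicates 2 and 3, Taz-KO replicates 3 and 4; up to 0.0952), Ldhd (WT replicates 1 and 2, Taz-KO replicates 2 and 4; up to 0.0724), Me3 (Taz-KO replicate 3; 0.0542) and Sdhc (WT replicates 1, 2 and 3, Taz-KO replicates 1, 2, 3 and 4; up to 0.112).

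**Figure D4:**
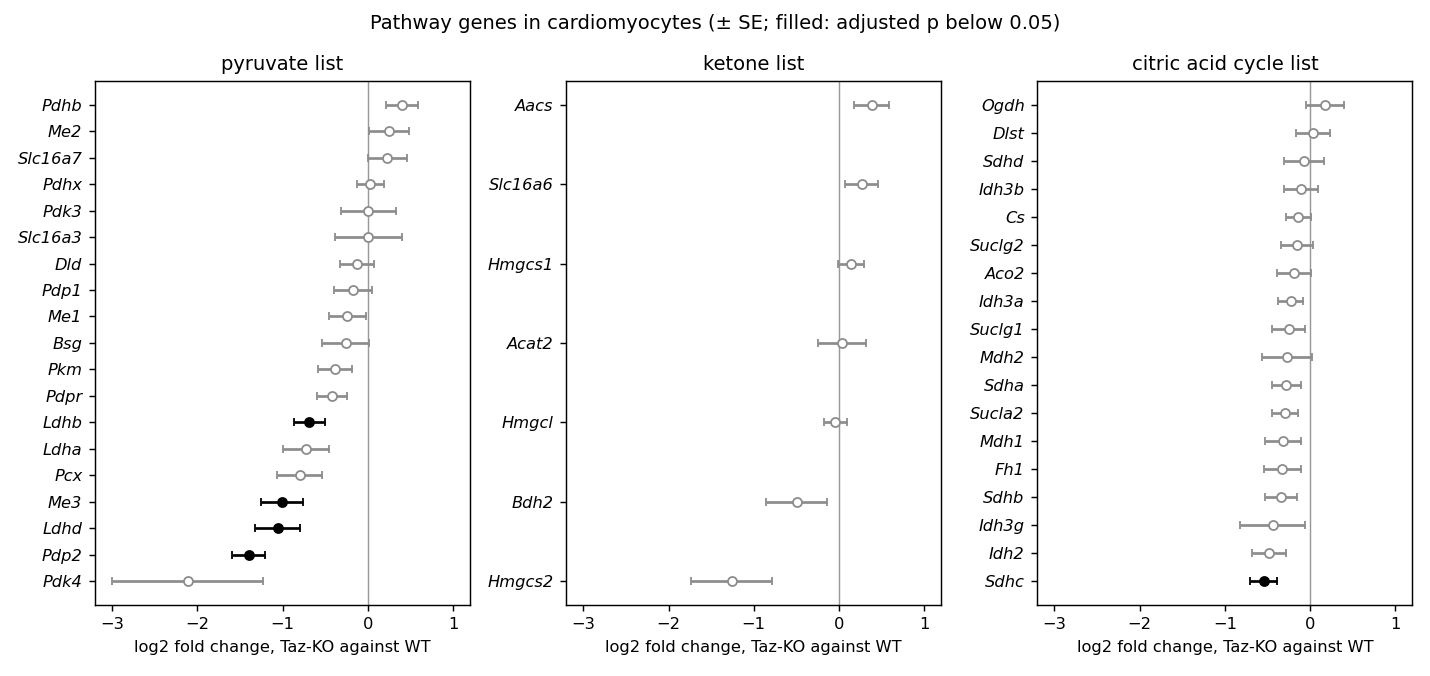
Log2 fold change in cardiomyocytes, Taz-KO against WT (edgeR, 4 mice per genotype, bars ± SE), of the genes tested of the pyruvate, ketone and citric acid cycle lists; filled points have an adjusted p below 0.05. Pdp2, Ldhd, Me3, Ldhb and Sdhc are filled, all below 0, and no gene of the ketone list is.

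The genes whose level followed Bdh1 most closely over the 32 sums of 4 cell types in 8 mice were Flnc (Pearson r = 0.93), Gyg (0.91), Mars (0.90), Ankrd1 (0.90) and Ndrg4 (0.88), out of 10420 genes compared. Flnc encodes filamin C of striated muscle, Ankrd1 a cardiac ankyrin repeat protein, Gyg glycogenin and Mars the cytosolic methionyl-tRNA synthetase. Among the members r with Bdh1 ranged from 0.35 for Acat1 to 0.75 for Mpc1. The 32 sums share libraries and mice, so these values are descriptions and carry no p.

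**Figure D5:**
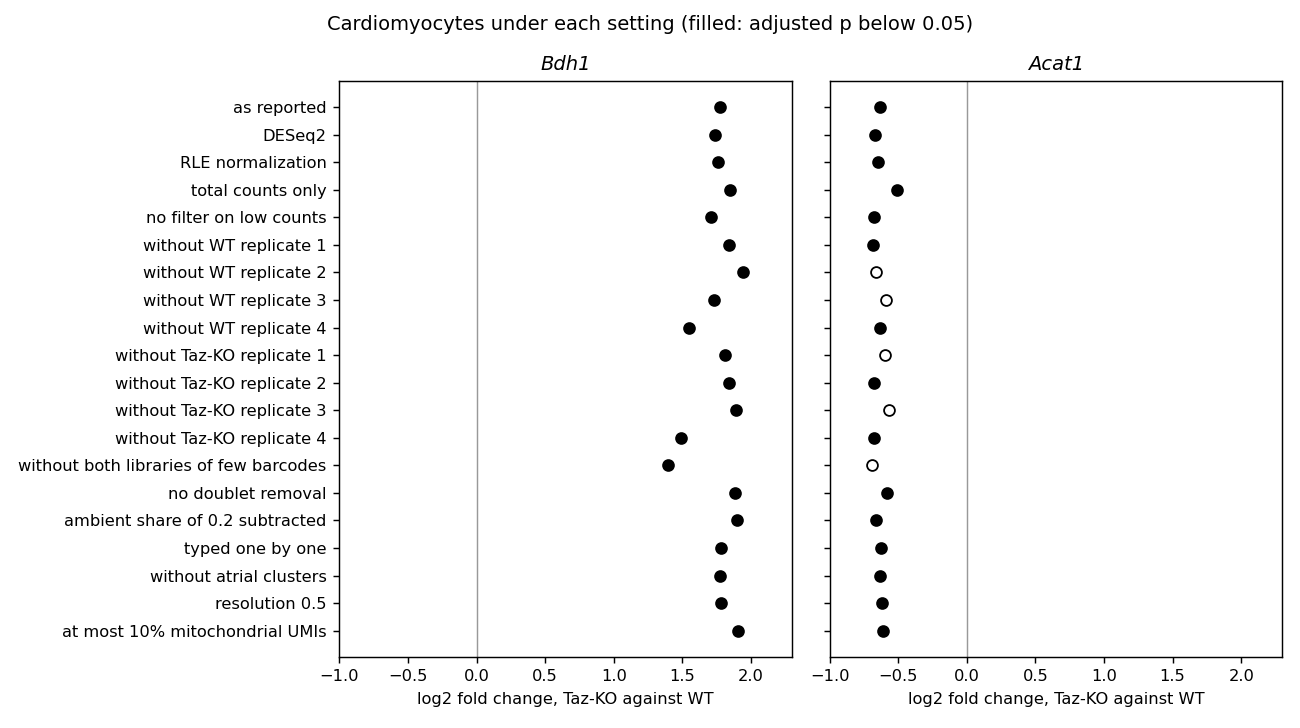
Log2 fold change of Bdh1 and Acat1 in cardiomyocytes, Taz-KO against WT, as reported and under 19 other settings; filled points have an adjusted p below 0.05. Bdh1 stays between 1.39 and 1.94 with every point filled, and Acat1 stays between -0.69 and -0.51 with 5 open points, each from leaving out mice.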

How the data were processed

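Nuclear RNA of whole hearts was sequenced as 10x 3′ v3.1 libraries, 1 per mouse. For each barcode the authors deposited unnormalized UMI counts of genes, made with Cell Ranger 6.0.1 against mm10, introns included. A barcode needed 800 UMIs and 250 genes to be kept (167495 of 169193), and 16231 called as doublets were removed. Nuclei were clustered (2000 variable genes, 15 principal components, Harmony re-implemented in Python, Leiden, resolution 0.9), and clusters were named from marker levels. The thresholds of the naming rule were set after marker levels had been seen, and the members and lists were chosen with earlier results of these data known. For each cell type, the counts of non-mitochondrial genes were added up over the nuclei of a mouse, and these sums were compared in edgeR 4.0.16 (quasi-likelihood, TMM, filterByExpr) in R 4.3.3. DESeq2 1.42.0 was an alternative. Each SE of an edgeR log2 fold change was worked out as its absolute value divided by the square root of the F statistic. Interactions had the mouse as a block. The study tested single nuclei, whereas mice are the replicates here. P-values of edgeR and DESeq2 were adjusted by Benjamini-Hochberg over all genes tested, and the exact p of the shares of nuclei was not adjusted. The edgeR fit was tested on counts simulated for cardiomyocytes and fibroblasts with known changes. The other steps were not tested in this way. All members, the 3 lists, Taz and the 5 genes most like Bdh1 were named. Depth ranged from 20025456 to 348080773 UMIs per library, and shares of nuclei carry counting error besides the spread between mice. Gene positions are from the GENCODE vM21 annotation of GRCm38. Alternatives changed normalization, the filter on low counts, doublets, ambient RNA, cell typing, clustering resolution and the mice included, and a limit of 10% mitochondrial UMIs was added after the data had been seen.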

Additional observations from a re-analysis of the deposited data

Results flagged for a closer look

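Within each genotype, 80 groups of 4 mice were examined for a mouse far from the other 3, and 6 were found, where chance gives about 1 in 20. In cardiomyocytes, Mpc2 of Taz-KO replicate 4 was at 91.1 CPM, with the other 3 Taz-KO mice at 119 to 124 CPM. In endothelial cells, Taz-KO replicate 4 was low for Pdha1 (34.5 against 176 to 203 CPM), Oxct1 (103 against 348 to 387 CPM) and Acat1 (58.8 against 122 to 131 CPM). WT replicate 4 was low for Slc16a1 in fibroblasts (15.3 against 54.7 to 60.2 CPM) and in endothelial cells (24.6 against 67.4 to 72.0 CPM). Both mice also had the least cardiomyocyte marker RNA in endothelial cells and fibroblasts of their genotype, and the part of that in these values was not tested.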

How the results depend on the processing

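Bdh1 and Pdp2 were called in cardiomyocytes in all 19 alternatives (log2 fold changes 1.39 to 1.94 and -1.54 to -1.24), and Acat1 kept its direction in all 19 but was not called in 5. Besides the fits without some mice, Ldhb, Ldhd and Sdhc were not called with total counts (adjusted p = 0.0769, 0.0863 and 0.0521), Ldhd after ambient subtraction (0.0810) and Sdhc without doublet removal (0.0576). The count of members called in cardiomyocytes ranged from 1 to 3 when 1 mouse was left out, where 9.04% to 13.1% of all genes were called, and was 1 without Taz-KO replicates 1 and 4 (10.02% of all genes). In adipocytes it was 1 with DESeq2, 1 without a filter (3.27% of all genes), 1 without doublet removal (Bdh1; 1.43%), 6 without Taz-KO replicates 1 and 4 (9.57%), and 0 to 4 with 1 mouse left out (4 without Taz-KO replicate 1, 2 without Taz-KO replicate 4, 1 without WT replicate 4, with 4.63%, 7.38% and 5.54% of all genes). The count of members whose shares of nuclei did not overlap between genotypes was 1 without thinning and 2 to 3 with 1 mouse left out. The share of all genes without such overlap was not determined. No member was called in fibroblasts, endothelial cells, macrophages, pericytes or the interactions under any alternative. With total counts the median log2 fold change of all genes in cardiomyocytes was 0.15, against 0.0077 in the fit as reported. Some values that were not called changed sign, and the cause was not tested. In cardiomyocytes these were Mpc1 (0.0039 with total counts, -0.25 to 0.10 with 1 mouse left out), Dlat (0.043 with total counts, 0.0025 without doublet removal, -0.20 to 0.054), Pdk1 (0.13 with total counts, 0.11 without doublet removal, 0.058 typed one by one, 0.0026 without atrial clusters, 0.027 at resolution 0.5, 0.00012 at most 10% mitochondrial UMIs, -0.040 to 0.052), Oxct1 (-0.031 with DESeq2, -0.0091 with RLE, -0.052 without a filter, -0.25 without Taz-KO replicates 1 and 4, -0.0050 at most 10% mitochondrial UMIs, -0.14 to 0.16) and Slc16a1 (-0.056 without Taz-KO replicates 1 and 4, -0.080 to 0.34). In adipocytes they were Oxct1 (-0.012 without a filter, -0.086 to 0.28) and Acat1 (-0.041 to 0.25). The Bdh1 interaction without Taz-KO replicates 1 and 4 was -0.26 against fibroblasts, -0.30 against endothelial cells and -0.31 against macrophages, and with 1 mouse left out -0.071 to 0.79, -0.17 to 0.47 and -0.16 to 0.75. No paired analysis was run. The replicate numbers used here only follow accession order. The mouse numbers in the labels are consecutive across genotypes for replicates 1 and for replicates 2, and within each genotype for replicates 3 and 4, and the labels do not say what that means. WT and Taz-KO replicate 2 also had the highest mitochondrial shares (23.7% and 20.5% of UMIs, against 1.57% to 13.5% in the other 6 libraries), whose part in the results was tested only through the limit of 10% per nucleus, under which Bdh1 and Acat1 were called. Depth limits the small cell types, where Bdh1 was at 0 UMIs in adipocytes of Taz-KO replicate 4 and in pericytes of Taz-KO replicate 1.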
